A study of Mus musculus with 68 samples.

Results

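Granzymes A to G and perforin are 8 genes of the cytotoxic granule, and they were represented on the array by 11 of its 45101 probesets. They were chosen by symbol, with all probesets of Gzma, Gzmb, Gzmc, Gzmd, Gzme, Gzmf, Gzmg and Prf1 taken, and the probeset that the array annotation gives to both Gzme and Gzmd was counted as Gzme. It is the one meant by Gzme below, unless its second probeset, of the kind _x_at, is named. The levels came from 68 papillomas of 37 FVBBX mice, a backcross of SPRET/Ei x FVB/N hybrids onto FVB/N, each papilloma on its own Affymetrix mouse genome array. All mice had been given DMBA on the back skin at 8 to 12 weeks of age and then TPA for 20 weeks, so that no untreated group enters these comparisons. The days each mouse lived, as labelled, differed between mice, were missing for some and entered no comparison. The resistant class held 6 mice (11 papillomas) with 0 or 1 papilloma at 20 weeks, 5 with an agouti coat and 1 white. The intermediate class held 19 mice (35 papillomas) with 2 to 7, 8 agouti and 11 white. The susceptible class held 12 mice (22 papillomas) with 9 to 35, 4 agouti and 8 white. In 31 mice 2 papillomas were measured and in the other 6 mice 1, and 21 mice were labelled female and 16 male. Coat color in these mice follows Tyr, the pigment gene on chromosome 7, where FVB/N is albino, and coat and class were unevenly spread over each other. The week of the first papilloma was recorded for 35 mice. Its median was 18 weeks in the 5 resistant mice that had one (8 to 28), 14 weeks in 18 intermediate mice (10 to 18) and 10 weeks in the 12 susceptible mice (8 to 12).

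Cytotoxic T lymphocytes and natural killer cells store granzymes, which are serine proteases, together with perforin, the protein that forms pores in the membrane of a target cell and lets the granzymes in. Granzyme B cleaves after aspartate and starts apoptosis, granzyme A is a tryptase, and granzymes C, D, E, F and G are rodent enzymes that arose by duplication of genes beside Gzmb and appear late after lymphocytes are activated. In mouse skin the dendritic epidermal T cells also carry such granules. In the RefSeq table for GRCm38.p6 the cluster lies on chromosome 14 in the order Gzme, Gzmd, Gzmg, Gzmn, Gzmf, Gzmc, Gzmb, whereas Gzma lies on chromosome 13 and Prf1 on chromosome 10.

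Promoter windows of 6 cluster genes are printed here because the question is which of these copies moved together, and the sequence shows how alike the copies are. RefSeq promoters (GRCm38.p6, from the C57BL/6J reference, neither strain of this cross) were found for all 8 genes. Each window below has 99 bases on the minus strand of chromosome 14, written 5′ to 3′ in the direction of transcription. Capitals mark the 8 bases aligned to TGACGTCA, the cyclic AMP response element, in the first 5 genes, and the AP-1 motif TGAGTCA in Gzmb. The windows are chr14:56120631-56120729 for Gzme, chr14:56132598-56132696 for Gzmd, chr14:56159600-56159698 for Gzmg, chr14:56211433-56211531 for Gzmf, chr14:56234658-56234756 for Gzmc and chr14:56262335-56262433 for Gzmb.
Gzme: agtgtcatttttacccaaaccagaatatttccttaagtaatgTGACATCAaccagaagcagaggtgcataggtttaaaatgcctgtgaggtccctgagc
Gzmd: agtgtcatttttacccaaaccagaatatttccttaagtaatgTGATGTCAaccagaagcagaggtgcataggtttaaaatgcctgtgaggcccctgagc
Gzmg: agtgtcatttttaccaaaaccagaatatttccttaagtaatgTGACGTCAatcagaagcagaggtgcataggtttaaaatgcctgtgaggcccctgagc
Gzmf: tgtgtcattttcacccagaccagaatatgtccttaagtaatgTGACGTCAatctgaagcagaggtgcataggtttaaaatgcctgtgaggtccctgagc
Gzmc: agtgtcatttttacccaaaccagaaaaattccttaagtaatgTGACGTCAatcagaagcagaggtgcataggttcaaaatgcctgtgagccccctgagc
Gzmb: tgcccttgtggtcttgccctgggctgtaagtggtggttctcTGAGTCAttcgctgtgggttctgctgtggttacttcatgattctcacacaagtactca
Over 250 bases before to 50 bases after the gene start, the promoters of Gzmd and Gzme were identical at 94.0% of 298 aligned columns and those of Gzmf and Gzmg at 90.0% of 281. The other pairs among Gzmc, Gzmd, Gzme, Gzmf and Gzmg reached 84.1% to 88.9%. The Gzmb promoter aligned with those 5 over no more than 40 columns. TGACGTCA, searched on both strands, was intact in Gzmc, Gzmf and Gzmg and in 1.79% of 32851 promoters. At the aligned place Gzme differs from it by G5A and Gzmd by C4T, with positions counted from 1 at the 5′ end of TGACGTCA and its own base given first. The AP-1 letters TGANTCA, also searched on both strands, were found among the members in Gzmb alone (7.81% of all promoters), and TGTGGT, the core bound by Runx factors, in all 8 members (16.8%). No motif is part of another, and a match describes the letters alone. Probesets ending in _x_at or _a_at can bind transcripts of related genes, so with copies this similar a level may hold signal of a neighbouring copy.

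Of the members, Gzme had the widest range of levels. No detection call was made, so a level below the median of its array was taken as near background and may carry little signal. Each array had a median log2 value of 5.19 to 5.29. Gzme exceeded it in 32 arrays, namely 9 of 11 from resistant, 18 of 35 from intermediate and 5 of 22 from susceptible mice, and ran from 2.79 to 11.13. The second Gzme probeset exceeded it in 27 arrays (9, 15 and 3). Gzmb exceeded it in 28 arrays (2, 13 and 13) and the _at probeset of Prf1 in 28 (6, 15 and 7), the last within a range of 0.97. Both Gzmd probesets did so in 1 array, Gzmc in 1 and Gzma in 1, and Gzmf, Gzmg and the _a_at probeset of Prf1 in none. Levels of different probesets are not compared with each other. No 2 arrays were identical, and in 8 arrays of 6 mice, resistant mouse 35 among them, Xist or a Y-linked gene went against the sex label. Since these are whole papillomas, fewer cells of a type and less RNA per cell cannot be told apart.

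The first papillomas of resistant mice 32 and 34 stood apart from the other 66 arrays. Krt1, a keratin of differentiating epidermis, was at 4.29 and 8.55 there against 11.78 to 14.43 elsewhere, and its partner Krt10 was at 7.14 and 10.78 against 11.46 to 14.47. In these 2 papillomas Gzmg (3.85 and 3.61), Gzmf (4.07 and 4.42) and Gzmc (5.16 and 5.37) reached their 2 highest levels of all arrays, as did Gzmd by its _x_at probeset (8.43 and 4.60). Gzme was at 9.83 and 11.13, the fifth highest and the highest. Gzmb, at 4.66 and 4.73, ranked 55 and 51 of 68, and Prf1 (_at) ranked 54 and 65. The mean over 21 genes of cytotoxic lymphocytes ranked 39 and 54, and that over the granzyme inhibitors Serpinb9, Serpinb9b and Serpinb6b ranked 1 and 41. These papillomas were picked out after their values were seen, and the main results of the members are given with and without them.

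Gzme was higher in papillomas of resistant than of susceptible mice, in most of which it lay below the array median, so that no fold is given. Over the 2 papillomas of a mouse, Gzme averaged 10.81 in resistant mouse 34, 10.62 in mouse 35 (1 papilloma), 9.41 in mouse 37, 7.84 in mouse 7, 7.35 in mouse 32 and 4.99 in mouse 10, the white one. In the 19 intermediate mice the lowest, median and highest levels were 3.24, 5.43 and 8.38, and in the 12 susceptible mice 3.07, 3.73 and 6.11. The 5 agouti resistant mice thus lay above every susceptible mouse, and the white one did not. The same 5 of 6 order was reached by 77 probesets (0.171%). The means were 8.50 ± 2.23 in resistant mice and 4.25 ± 1.01 in susceptible mice (SD, n = 6 and 12), a log2 difference of 4.26 (SE 0.68, limma adjusted p = 0.0325, exact permutation p = 0.000215 over 18564 splits, two-sided). For the second probeset they were 7.19 ± 1.52 and 4.15 ± 0.66, a difference of 3.04 (SE 0.46, limma adjusted p = 0.0195).

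Of the 11 member probesets, these 2 of Gzme passed the threshold of 0.05 between classes, against 8 of all 45037 probesets tested (0.0178%). They were also the only probesets called higher in resistant mice (0.00444%). The 6 called lower included none of the members. Resistant mice also lay above intermediate mice by 3.03 (exact permutation p = 0.00154 over 177100 splits), and intermediate mice, at 5.48 ± 1.63 (SD, n = 19), lay above susceptible mice by 1.23 (permutation p = 0.0268), although both neighbouring pairs of classes overlapped. Among agouti mice alone the levels did not overlap, with 9.21 ± 1.58 in 5 resistant mice and 4.70 ± 1.05 in 4 susceptible mice (SD, exact permutation p = 0.00794, the smallest that 126 splits allow), an order that 227 probesets (0.504%) showed. Within the cohorts that started treatment together, Gzme was at 7.59 in 2 resistant and 4.42 in 2 susceptible mice of cohort B, at 4.99 in 1 and 4.16 in 3 of cohort C, and at 10.81 in 1 and 4.82 in 1 of cohort G, numbers too small to pass a test.

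The direction held, but the limma call did not, when the papillomas that stood apart were left out. Without these 2 papillomas Gzme averaged 8.04 ± 2.61 in resistant mice and 4.25 ± 1.01 in susceptible mice, a difference of 3.79 (limma adjusted p = 0.262, exact permutation p = 0.000916), and mouse 32, then at the 4.87 of its second papilloma, no longer lay above every susceptible mouse. Among agouti mice alone the means were then 8.65 ± 2.39 in 5 resistant mice and 4.70 ± 1.05 in 4 susceptible mice (SD, exact permutation p = 0.0317). With each mouse left out in turn the difference was 3.79 to 4.96 and the adjusted p at most 0.120. Removing resistant mouse 7, 32, 34, 35 or 37, or susceptible mouse 1, 9, 11, 18, 28, 31 or 36, brought the adjusted p above 0.05. The call was also lost with coat as covariate (3.49, adjusted p = 0.312), with first papillomas alone (4.28, adjusted p = 0.162) and when mice whose sex label was doubtful were left out (3.94, adjusted p = 0.0639).

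**Figure D1:**
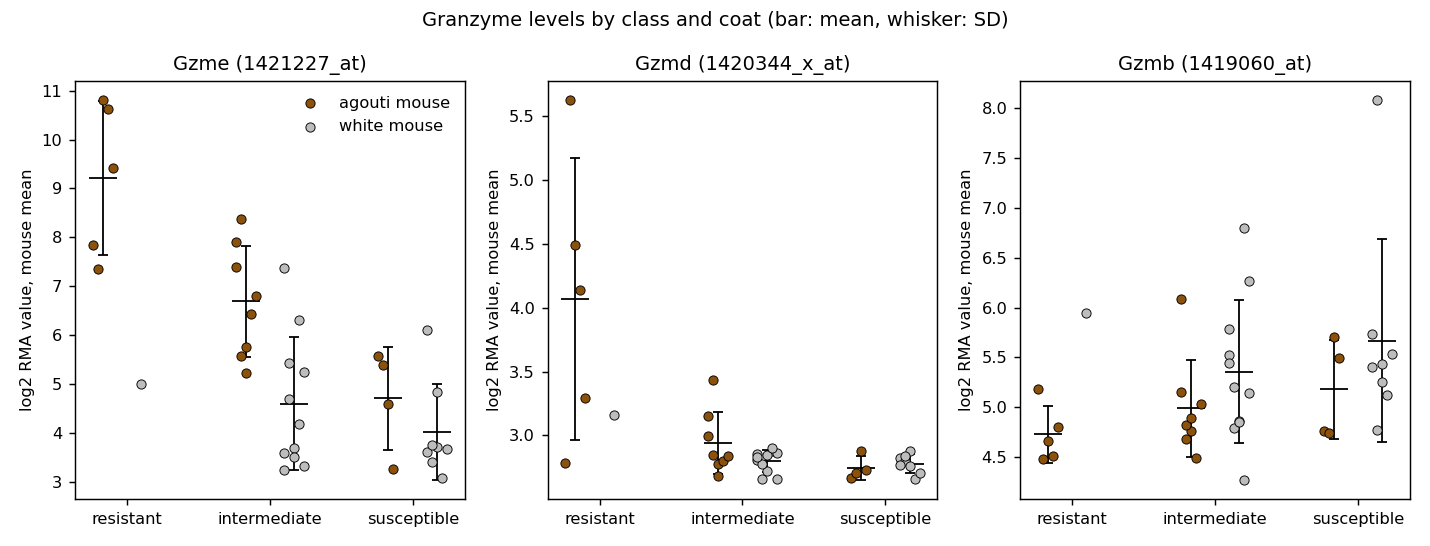
Log2 RMA value per mouse (vertical axes, papillomas of a mouse averaged) of Gzme, Gzmd and Gzmb in resistant, intermediate and susceptible mice, with agouti mice in brown and white mice in grey; horizontal bars are means and whiskers SD. Gzme in the 5 agouti resistant mice lies between 7.35 and 10.81, Gzmd is highest in 3 of the same mice, 2 of them below the array medians, and Gzmb is highest in a white susceptible mouse at 8.08.

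Gzmd, the copy whose promoter is nearest to that of Gzme, was higher in 3 resistant mice than in all others, although both its probesets exceeded the array median in 1 array alone, the first papilloma of mouse 32. Its _x_at probeset was at 5.63 in mouse 32, 4.49 in mouse 34 and 4.14 in mouse 35, at 3.29, 3.16 and 2.78 in resistant mice 37, 10 and 7, and at 2.66, 2.76 and 2.88 (lowest, median and highest) in the 12 susceptible mice. Of the 6 resistant mice 5 lay above all susceptible mice. Mouse 7, with Gzme at 7.84, had Gzmd within the susceptible range. The means were 3.91 ± 1.06 in resistant mice and 2.77 ± 0.08 in susceptible mice (SD, n = 6 and 12), a difference of 1.15 (SE 0.27, limma adjusted p = 0.177, exact permutation p = 0.000323). The _at probeset gave 1.08 (SE 0.26, limma adjusted p = 0.196, exact permutation p = 0.0007). Neither passed over all probesets, and both did (adjusted p = 0.0175 each) in a limma fit over all 37 mice, which takes the spread from intermediate mice too. Without the 2 papillomas of lowest Krt1 the differences were 0.66 (exact permutation p = 0.00124) and 0.72 (exact permutation p = 0.00506). In mouse 32 the high level was that of 1 papilloma, with 8.43 in the first and 2.83 in the second, and in mouse 34 of both, with 4.60 and 4.38.

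Gzmg, Gzmf and Gzmc, which lie between Gzmd and Gzmb, stayed close to or below background. They did not differ between resistant and susceptible mice by the test over all probesets. Gzmg was between 2.82 and 3.40 in resistant mice and between 2.58 and 3.14 in susceptible mice. Gzmf was between 3.14 and 3.77 and between 3.21 and 3.47. Gzmc was between 3.59 and 4.93 and between 3.31 and 4.68. The resistant minus susceptible differences were 0.16 (SE 0.09) for Gzmg, 0.15 (SE 0.07) for Gzmf and 0.16 (SE 0.19) for Gzmc, with limma adjusted p of 0.694, 0.622 and 0.909. Without the 2 papillomas of lowest Krt1 they were 0.03, -0.03 and -0.05. Resistant mice lay above intermediate mice by 0.48 for Gzmc, 0.18 for Gzmf and 0.15 for Gzmg. The unadjusted exact permutation p were 0.00698, 0.0236 and 0.0271, and this was not repeated without those 2 papillomas. Intermediate minus susceptible differences were -0.32 for Gzmc (permutation p = 0.00784), -0.03 for Gzmf and 0.01 for Gzmg.

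Gzmb, the classical apoptosis-inducing granzyme, and Gzma and Prf1 did not pass between the classes either. Gzmb was at 5.94 in resistant mouse 10, the mouse lowest in Gzme, and between 4.49 and 5.18 in the other 5 resistant mice, against a lowest, median and highest level of 4.74, 5.42 and 8.08 in susceptible mice. Its means were 4.93 ± 0.56 in resistant mice and 5.50 ± 0.89 in susceptible mice (SD, n = 6 and 12), a difference of -0.57 (SE 0.37, limma adjusted p = 0.756, exact permutation p = 0.166). Gzma differed by 0.02 (SE 0.20) and the 2 probesets of Prf1 by 0.09 (SE 0.09) and 0.07 (SE 0.08). Among agouti mice alone Gzma did not overlap, at 4.03 ± 0.11 in 5 resistant mice and 3.83 ± 0.03 in 4 susceptible mice (SD, exact permutation p = 0.0238, below the array median in all 9 mice), an order that 0.504% of probesets showed. Without the 2 papillomas of lowest Krt1 these Gzma levels overlapped, at 4.01 ± 0.16 and 3.83 ± 0.03 (SD, exact permutation p = 0.0873).

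**Figure D2:**
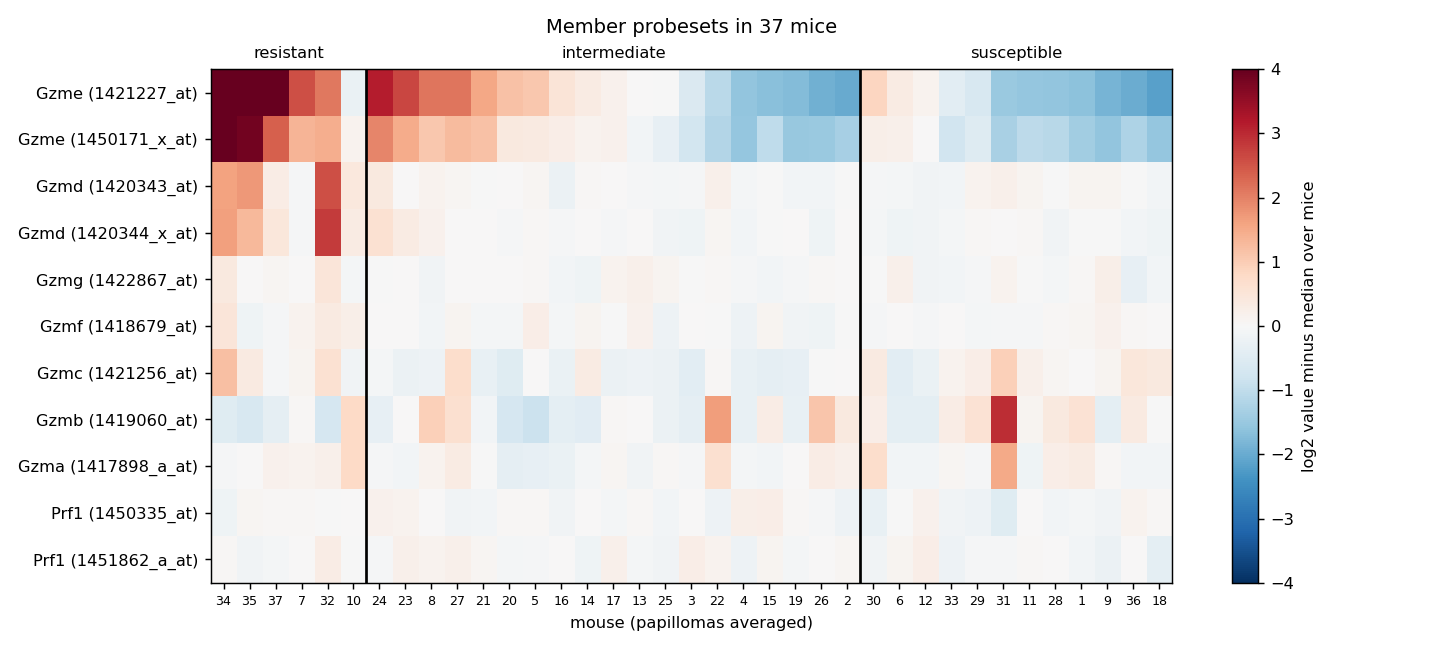
Level of each member probeset (rows) in each of the 37 mice (columns, by class and by falling Gzme within a class), as log2 RMA value minus the median of that probeset over mice. The rows of Gzme change across the whole range, those of Gzmd are raised in mice 34, 35 and 32, and those of Gzmb and Gzma are highest in susceptible mouse 31.

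Coat color sorted Gzme as well. In agouti mice the lowest, median and highest levels were 3.26, 6.80 and 10.81, and in white mice 3.07, 3.73 and 7.37, so that the groups overlapped over most of the range of the white mice. The means were 6.96 ± 2.07 in agouti mice and 4.38 ± 1.20 in white mice (SD, n = 17 and 20), a difference of 2.58 with sex as covariate (SE 0.53, limma adjusted p = 0.0411, permutation p = 4e-05). The second probeset differed by 1.82 (SE 0.37, limma adjusted p = 0.0380). These were again the only 2 of 11 member probesets called, against 23 of 45037 (0.0511%), and 2 of the 6 that were higher in agouti mice (0.0133%), with none of the members among the 17 lower ones (0.0377%). The difference was present among intermediate mice, with 6.69 ± 1.14 in 8 agouti and 4.59 ± 1.36 in 11 white mice (SD, exact permutation p = 0.00361), and all 8 lay above the white median. Among susceptible mice it was 4.70 ± 1.05 in 4 agouti and 4.02 ± 0.98 in 8 white mice (SD, exact permutation p = 0.273), and the difference between the 2 coat effects, 1.41, did not pass (permutation p = 0.183).

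Within start cohorts the agouti minus white difference of Gzme was positive in all 7, from 0.52 in cohort A (1 and 5 mice) to 5.37 in cohort D (1 and 1). In the largest, cohort F, it was 3.01 without overlap (5 agouti and 4 white mice). The exact permutation p of 0.00794 is the smallest that these group sizes allow. How many other probesets showed the same order in cohort F was not counted. The limma call was lost with class as a second covariate (1.83, adjusted p = 0.233), without resistant mice (1.66, adjusted p = 0.532) and without the 2 papillomas of lowest Krt1 (2.40, adjusted p = 0.106). It was also lost without 24 of the 37 mice when each was left out in turn, at differences of 2.33 to 2.83 and an adjusted p of at most 0.0920. Gzmb ran the other way, at 4.96 ± 0.45 in agouti mice and 5.51 ± 0.83 in white mice (SD, n = 17 and 20, difference -0.54 with sex as covariate, limma adjusted p = 0.618, permutation p = 0.0130), with a positive difference, 0.56, in cohort B. Gzma differed by -0.24 and Gzmd by 0.35 and 0.43, none called.

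Gzmd rose with the time to the first papilloma by 1 of its 2 probesets, a limma call that was lost without 1 mouse. The limma fit on weeks called 4 of 45037 probesets (0.00888%), all with rising levels, and 1 of the 11 member probesets was among them. This was the _x_at probeset of Gzmd, with a slope of 0.098 per week (SE 0.016, adjusted p = 0.0119, n = 35 mice). The _at probeset of Gzmd had 0.081 (SE 0.016, adjusted p = 0.0643), and Gzme had 0.203 (SE 0.070, adjusted p = 0.343) and 0.151 (SE 0.046, adjusted p = 0.278). For the called probeset Pearson's r with the week was 0.723 (permutation p = 0.00013) and Spearman's rho 0.358 (permutation p = 0.0353). Mouse 32 had both the longest latency, 28 weeks, and the highest Gzmd. Without it r was 0.461 (permutation p = 0.00520), rho 0.296 (permutation p = 0.0892) and the slope 0.0467 (limma adjusted p = 0.375). Without mice 32 and 37, the mice of most extreme week, r was 0.419 (permutation p = 0.0119) and rho 0.230 (permutation p = 0.196), and without the 2 papillomas of lowest Krt1 the slope was 0.0255 (limma adjusted p = 0.274).

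For Gzme r with the week was 0.435 (permutation p = 0.00962, rho 0.312, permutation p = 0.0680) over 35 mice and 0.331 (permutation p = 0.0597) without mice 32 and 37. It was 0.115 in 18 intermediate mice and -0.239 in 12 susceptible mice, 0.523 in 16 agouti (permutation p = 0.0400) and 0.0885 in 19 white mice, and 0.304 and 0.475 in cohorts B and F (8 mice each). The relation over all mice was therefore not seen within the intermediate or the susceptible class. These values cannot decide whether it is absent there, since the mice were few. In susceptible mice the weeks ran only from 8 to 12, with a median of 10, and only 5 resistant mice had a week. Nor did Gzme follow the number of papillomas within the intermediate class (r = 0.0893, permutation p = 0.714, n = 19).

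**Figure D3:**
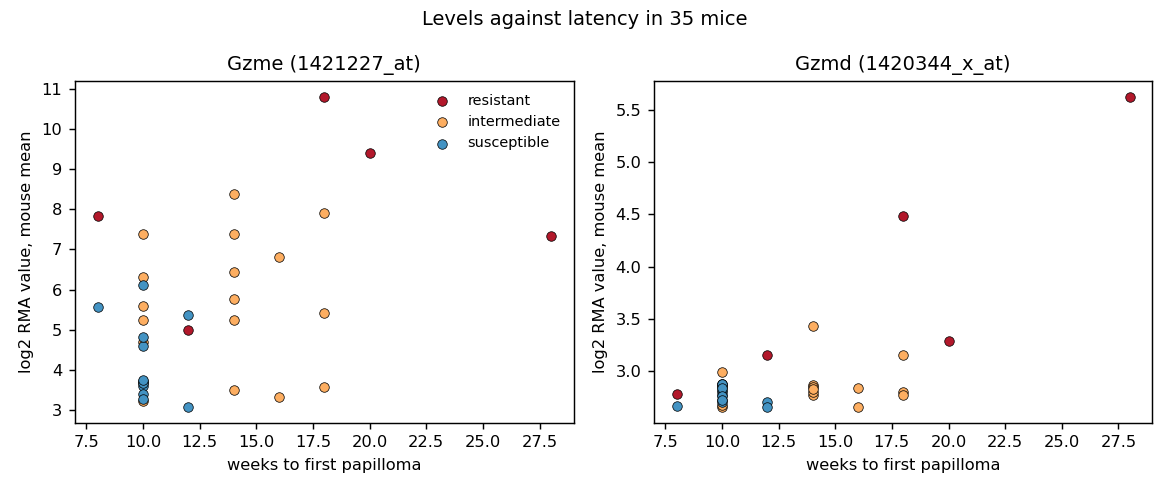
Weeks to the first papilloma (horizontal axes) against the log2 RMA value per mouse of Gzme and Gzmd (vertical axes) in 35 mice, colored by class. The Gzmd point at 28 weeks and 5.63 is mouse 32, and most susceptible mice lie at 10 weeks.

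Papillomas of the same mouse were alike in Gzme and Gzmb. The intraclass correlation, which is 1 where the 2 papillomas of a mouse are equal and near 0 where they are as different as papillomas of different mice, was 0.642 and 0.637 for the 2 probesets of Gzme in 31 mice (F test over all probesets, adjusted p = 0.000386 and 0.000435). Gzmb had 0.589 (adjusted p = 0.00137). The other 8 member probesets did not pass, from -0.0597 for Gzmf to 0.334 for Gzma (adjusted p = 0.0635). Of all probesets 43.2% passed, so 3 of 11 members is no more than that share. Gzmd had 0.131 and 0.135, and 0.685 and 0.694 without mouse 32, whose pair was 5.12 and 5.60 apart. With class means removed its values were -0.114 and -0.117. Papillomas of a mouse could still differ widely in Gzme, by more than 1 log2 unit in 14 of 31 pairs, with a within-mouse SD of 1.27. The widest gap was 9.83 against 4.87 in mouse 32, and the next was 7.61 against 3.55 in intermediate mouse 14. In resistant mouse 10 they were at 3.49 and 6.49, and in mouse 34 at 11.13 and 10.49. RNA quality, taken as the signal at the 3′ end of Actb over that at its 5′ end (log2), was -0.24 and 0.59 in the 2 papillomas of mouse 32 and -0.27 and 1.71 in those of mouse 37, against 0.48 to 2.13 in intermediate and 0.47 to 1.47 in susceptible mice. Its part in these gaps was not tested.

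**Figure D4:**
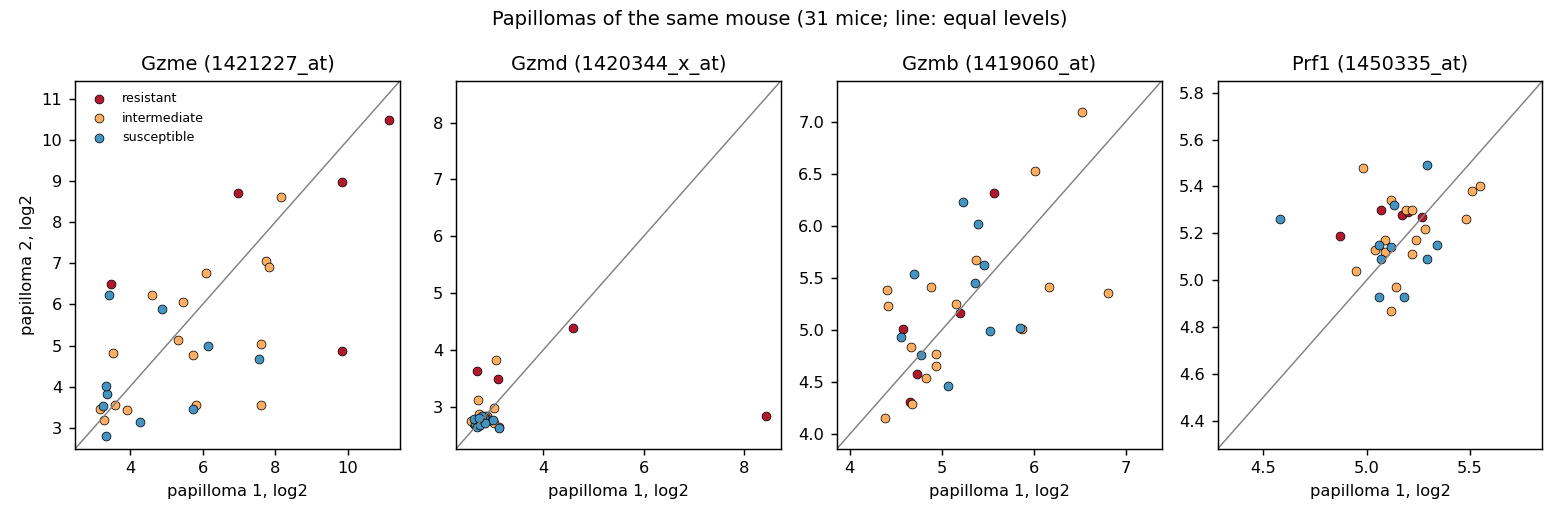
Papilloma 1 (horizontal axes) against papilloma 2 (vertical axes) of the same mouse, in log2 RMA values, for Gzme, Gzmd, Gzmb and Prf1 in 31 mice, colored by class; the line marks equal levels. The Gzmd pair at 8.43 and 2.83 is mouse 32, and Prf1 spans less than 1 log2 unit.

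Over the 37 mouse means, Gzmd had the highest r with Gzme among the other granzymes, and Gzmb the lowest. Pearson's r with it was 0.988 for the second Gzme probeset, 0.594 for Gzmd by the _x_at probeset (permutation p = 0.00034, rho 0.503, permutation p = 0.00165) and 0.557 by the _at probeset (permutation p = 0.00107, rho 0.391, permutation p = 0.0171). Since the Gzme probeset is annotated to both genes, part of this r may be Gzmd signal measured in both. With the second Gzme probeset, annotated to Gzme alone, Gzmd had 0.632 (_x_at) and 0.603 (_at). That probeset may also hold signal of a copy this similar, which was not tested. With the first Gzme probeset, 80 of all probesets (0.178%) reached 0.5. Gzmg had 0.314, Gzmf 0.243 and Gzmc 0.222, none with a permutation p under 0.05. Gzmb had -0.380 (permutation p = 0.0207, rho -0.431), Gzma -0.147, and Prf1 0.108 and 0.199. These are 10 relations with unadjusted p. In a limma fit of every other probeset on the Gzme level, which called 27 of 45036 (0.0600%), 9 with a rising level (0.0200%) and 18 with a falling one (0.0400%), the second Gzme probeset was the single member called, and Gzmd had an adjusted p of 0.0707 and 0.142.

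How far Gzmd followed Gzme depended on which mice were taken. Without mice 34 and 35, the farthest from the median of Gzme, r was 0.399 (permutation p = 0.0142) and 0.291 (permutation p = 0.0673), and without the 3 mice of highest Gzmd it was 0.596 and 0.294. Without the 2 papillomas of lowest Krt1 it was 0.750 and 0.641. In 19 intermediate mice, where Gzmd reached no more than 3.43, r was 0.653 (permutation p = 0.00079) and 0.514 (permutation p = 0.0213). It was 0.228 and 0.279 in 6 resistant mice and -0.155 and -0.401 in 12 susceptible mice, none of which passed. With the means of class, coat and start cohort removed it was 0.147 and 0.122 and did not pass, while rho was 0.368 (permutation p = 0.0255) and 0.344 (permutation p = 0.0379). Within start cohorts it was -0.173 and -0.263 in cohort A, 0.427 and 0.402 in cohort B and 0.734 and 0.454 in cohort F (6, 8 and 9 mice). The negative relation of Gzmb with Gzme was -0.315 without mice 34 and 35 (permutation p = 0.0630), -0.218 in intermediate, -0.223 in susceptible and -0.147 in white mice, and 0.0346 in cohort B, and no one of these passed. In the 6 resistant mice Gzma had r = -0.921 (exact permutation p = 0.00417, rho -0.943, exact permutation p = 0.0167), with mouse 10 highest in Gzma and lowest in Gzme, and Gzmb had -0.781 (exact permutation p = 0.0597).

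Differences between the 2 papillomas of a mouse leave out whatever its papillomas share, and over them too Gzmd had the highest r with Gzme among the other members. Over 31 mice r with the Gzme difference was 0.957 for the second Gzme probeset, 0.600 for Gzmd by the _x_at probeset (permutation p = 3e-05) and 0.548 by the _at probeset (permutation p = 0.00068). Without mice 14 and 32, the pairs of widest Gzme gap, these Gzmd values were 0.591 (permutation p = 0.00081) and 0.314 (permutation p = 0.0963). Gzmg had 0.504 (permutation p = 0.00430), but 0.291 without the same pairs and 0.341 without the mice of the 2 papillomas of lowest Krt1. With the second Gzme probeset, annotated to Gzme alone, Gzmd had 0.639 (_x_at) and 0.601 (_at). With the first Gzme probeset, 325 of all probesets (0.722%) reached 0.5. Gzma, whose r over all mouse means was -0.147, had 0.424 (permutation p = 0.0185) and 0.527 without those pairs. Prf1 (_at) had -0.472 (permutation p = 0.00785) and -0.327 without them, within its range of 0.97. Gzmc had 0.318, Gzmf 0.237 and Gzmb 0.178, with a permutation p above 0.05. A limma fit of all probesets on the Gzme difference called 9 (0.0200%), the second Gzme probeset among them (adjusted p = 0.0322) and no other member (Gzmd adjusted p = 0.0982 and 0.187). In the 14 pairs whose Gzme differed by more than 1 log2 unit, Gzmd had the same direction in 10 and 11, Gzmg in 11, Gzmb in 10, Gzma in 9, Gzmc and Gzmf in 8, and Prf1 in 7 and 8. Gzmd itself differed by more than 1 log2 unit in 1 of them, mouse 32.

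**Figure D5:**
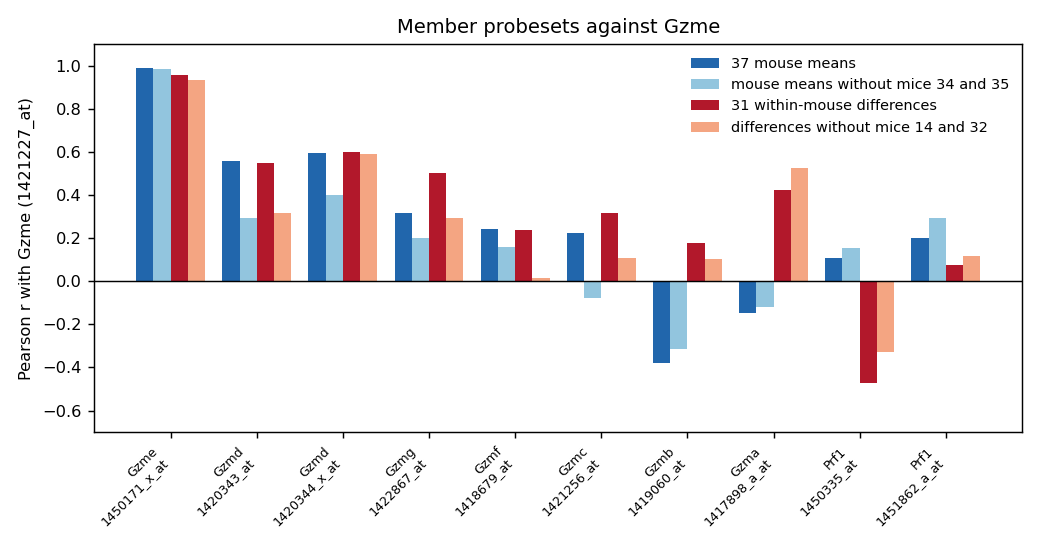
Pearson's r (vertical axis) of each other member probeset (horizontal axis) with Gzme over 37 mouse means and over 31 within-mouse differences, each also without the 2 mice farthest out. The Gzmd bars are positive in all 4 settings, Gzmb and Gzma are negative over mouse means and positive over differences, and the _at probeset of Prf1 is the reverse.

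Gzmb and Gzma formed a second pair. Over 37 mouse means their r was 0.810 (permutation p = 1e-05, the smallest that 100000 permutations allow; rho 0.579, permutation p = 0.00021). Susceptible mouse 31, white and with 1 papilloma, was highest in both, with 8.08 for Gzmb and 5.45 for Gzma. Without it r was 0.658 (permutation p = 4e-05), and without mice 22 and 31 it was 0.583 (permutation p = 0.00018). It was 0.853, 0.411 and 0.948 in cohorts A, B and F, of which the last passed (exact permutation p = 0.00282). Over within-mouse differences r was 0.249 (permutation p = 0.177). The relation was computed after the values were seen. Gzmb also ran with the mean over 21 genes of cytotoxic lymphocytes (r = 0.688 over 37 mice), with 4 genes of gamma-delta and epidermal T cells (r = 0.684) and with 7 other proteases of the chromosome 14 cluster, most of them mast cell chymases (r = 0.753). It had 0.621 with 7 mast cell genes outside the cluster, 0.488 with 6 macrophage genes, 0.459 with 6 neutrophil genes and 0.425 with 9 granule genes. Gzme had r of -0.0642, 0.0164 and -0.0407 with the first 3 lists and of -0.0724 to 0.167 with the other 4. The r over mouse means was not repeated without mouse 31, the highest in Gzmb. Over within-mouse differences, which mouse 31 does not enter, the contrast was smaller. There Gzmb had 0.453, 0.386 and 0.523 with the first 3 lists and 0.475 to 0.546 with the other 4. Gzme had 0.258, 0.0593 and 0.0700 with the first 3 lists and -0.0431 to 0.263 with the other 4. These values of r are descriptions over lists that share arrays, with no test.

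The genes of these lists showed no called change. Among the 21 of cytotoxic lymphocytes 5 were higher and 16 lower in resistant than in susceptible mice, none called, with a median of -0.07, against 0.005 over all probesets. The mean over the list ranged from 4.73 to 5.10 in resistant, 4.56 to 5.15 in intermediate and 4.76 to 5.66 in susceptible mice. Cd3d, a subunit of the T cell receptor complex, was above the array median in 60 of 68 arrays. Cd8a, the coreceptor of cytotoxic T cells, was above it in 68, by an _x_at probeset that can bind transcripts of related genes. Cd8b1, Ncr1, Fasl, Ifng and Tbx21 were above the array median in none. Gzmk and Gzmn, further granzymes, were above it in none, and Gzmm in 51 with a class difference of -0.04 (SE 0.08). Of 9 genes of granule maturation and release, such as Srgn, the proteoglycan core of the granule, and Ctsc, which activates granzymes, 4 were higher and 5 lower, none called, with a median of -0.00. All 3 granzyme inhibitors were higher in resistant mice, Serpinb6b by 0.90 (SE 0.52), Serpinb9 by 0.73 (SE 0.33) and Serpinb9b by 0.28 (SE 0.15), none called. No member of any of the 11 lists was called by coat or by latency.

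Krt1, Krt10 and genes of fibroblasts and vessels varied along with Gzme, and their part in its differences was not tested. Krt1 was at 11.88 ± 2.02 in resistant mice and 13.61 ± 0.62 in susceptible mice, and Krt10 at 12.23 ± 1.00 and 13.72 ± 0.50 (SD, n = 6 and 12, limma adjusted p = 0.369 and 0.120). Without the 2 papillomas of lowest Krt1 the means in resistant mice were 12.90 ± 0.40 for Krt1 and 12.96 ± 0.51 for Krt10. With Gzme over mouse means Krt10 had r = -0.450 and over within-mouse differences -0.530, and Krt1 had -0.371 and -0.522. Gzme ranked 5 and 1 of 68 in those 2 papillomas, which may weigh heavily in r. The r values of this paragraph were not repeated without them. The other 3 keratinocyte genes had r of -0.0307 (Krt14) to 0.154 (Trp63) over means. The mean over 5 keratinocyte genes, 2 of them lower and 3 higher in resistant mice, ranged from 11.51 to 13.20 in resistant and from 12.51 to 13.60 in susceptible mice and had r = -0.321 over means and -0.501 over differences. All 5 endothelial genes were higher in resistant mice, with a median of 0.21 and none called, and their mean ranged from 6.65 to 8.26 in resistant and from 6.35 to 8.24 in susceptible mice. It had r = 0.397 with Gzme over means and 0.503 over differences. Of 6 fibroblast genes 3 were higher and 3 lower in resistant mice, none called, with a median of 0.04. Their mean ranged from 10.44 to 12.66 in resistant and from 11.07 to 12.63 in susceptible mice and had r = 0.344 with Gzme over means and 0.416 over differences, and the collagen gene Col1a1 had 0.507 and 0.440.

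The probesets most like Gzme over mouse means lay mainly on chromosome 14, the chromosome of Gzme itself. By Pearson's r over the 37 means, the 12 highest probesets outside the members were Tinf2 (0.723), Fut11 (0.722), Abhd4 (0.690 and 0.600), Plau (0.687 and 0.629), Ddhd1 (0.628), Extl3 (0.621), Ctsb (0.609), Adamts7 (0.606), Fndc3b (0.587) and Ap5m1 (0.584). All lie on chromosome 14 except Adamts7, on chromosome 9, and Fndc3b, on chromosome 3. Plau encodes the urokinase plasminogen activator, Ctsb the lysosomal protease cathepsin B and Tinf2 a protein of the telomere-binding shelterin complex. The 6 lowest probesets, from 4 genes, were on chromosome 14 as well, and 3 of them were of Eef1akmt1 (-0.751, -0.739 and -0.702), with Tox4 (-0.719), Pde12 (-0.696) and Psmd6 (-0.695). Of 34874 named probesets with a chromosome 3.50% were on chromosome 14, against 22.1% of the 68 with r of at least 0.5 and 47.3% of the 110 with r of -0.5 or lower.

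Between papillomas of the same mouse the share on chromosome 14 was near that of all named probesets. Over within-mouse differences 2.39% of the 293 named probesets with r of at least 0.5 and 4.79% of the 146 with r of -0.5 or lower were on chromosome 14. There the 12 probesets above had r of -0.0468 to 0.385, with a median of 0.212. Plau itself had a resistant minus susceptible difference of 2.02 (SE 0.72, limma adjusted p = 0.448) and an agouti minus white difference of 1.65 (SE 0.47, limma adjusted p = 0.353), and its intraclass correlation was 0.928. These r values share arrays and are given as a description, with no test.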

How the data were processed

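The values were on the log2 scale, 1 value for each probeset and array, which the authors had derived from 68 arrays by RMA. This method corrects background, normalizes arrays by quantiles and summarizes probes; it is given in the submitters' processing notes, with no version in the sources used here. All columns of values were used. Genes were named by the annotation of the array, and chromosomes, promoters and gene order came from RefSeq tables for GRCm38.p6. Class, coat, sex, week of the first papilloma and start cohort came from the labels. Of 45101 probesets, 64 controls were left out and 45037 were tested.

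The mouse was the replicate, and log2 values of its papillomas were averaged. Classes (resistant against susceptible), coats (with sex as covariate) and weeks entered limma fits (version 3.58.1, R 4.3.3, lmFit and eBayes with trend), with Benjamini-Hochberg adjustment over all probesets and a threshold of 0.05. Single probesets were compared by two-sided exact permutation over mice, or by 100000 permutations where each group had 10 or more mice; the coat effects of 2 classes by 20000. Correlations were tested by 100000 permutations, or by full enumeration under 10 mice; their p over the 10 members was not adjusted, and limma fits of all other probesets on Gzme stand in for it. The intraclass correlation was tested by F. The number of mice limits the precision. Motifs were searched and promoters aligned with Biopython 1.88. Statistics and figures used scipy 1.17.1, matplotlib 3.10.9, pandas 2.3.3 and numpy 2.4.6. The models were tested on simulated data. For the limma fits these were independent normal values with large changes added. Unequal spread between groups and single outlying papillomas were not covered.

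The members and the 11 gene lists were chosen with earlier results of these data known. The text names all member probesets, the 12 others of highest r with Gzme, and genes of the lists, for the cytotoxic list more than the 4 set as the limit, the others added after their values were seen. The lowest 6, the comparisons with intermediate mice, the relation of Gzmb with Gzma and the settings without the 2 papillomas of lowest Krt1, without the mice of highest Gzmd, without mouse 31 or 32, without resistant mice, within single cohorts and within single coats for correlations were added after the data were seen. Alternatives covered the filter, centring, eBayes trend, covariates, random blocks, single papillomas, the second Gzme probeset and leaving out each mouse. Carcinomas, skin and genotypes were not analysed here.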

Additional observations from a re-analysis of the deposited data

Results flagged for a closer look

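A mouse stood far from the rest of its group in 5 of 55 tests, each of 1 member probeset in 1 group of 4 to 8 mice. Chance alone gives about 1 in 20 for a single test. The tests share mice, and some share a gene, so they cannot show whether 5 is more than chance gives. Gzma was 4.72 in resistant mouse 10, with the other 5 resistant mice between 3.89 and 4.15. Mouse 10 was also the resistant mouse of lowest Gzme and the white one. Gzmb was 6.08 in intermediate agouti mouse 8, with the other 7 between 4.49 and 5.15. In the 8 susceptible white mice, mouse 31 was at 8.08 for Gzmb, with the others between 4.77 and 5.73, and at 4.68 for Gzmc, with the others between 3.72 and 4.13. Mouse 30 of the same group was at 5.22 for the second Gzme probeset, with the others between 3.42 and 4.24. The coat difference of the _a_at probeset of Prf1 was -0.05 in intermediate mice and 0.21 in susceptible mice, and these differed by -0.26 (permutation p = 0.0182, the smallest of 11 such tests); this probeset was below the array median in all 68 arrays.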

How the results depend on the processing

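Between the classes Gzme kept its direction under every alternative run. Its limma call was lost with the first papilloma of each mouse (4.28, adjusted p = 0.162), with coat as covariate (3.49, adjusted p = 0.312), without mice of doubtful sex label (3.94, adjusted p = 0.0639) and without the 2 papillomas of lowest Krt1 (3.79, adjusted p = 0.262); member probesets called were 0 in each, and 4 with all 37 mice in the fit. Probesets called, 8 in the fit reported, were 0, 0, 4 and 3 in these settings, 13 without eBayes trend, 3 with mouse as random block, 282 with arrays as separate samples and 17 with all 37 mice. Leaving out each mouse gave 3.79 to 4.96, 0 to 30 probesets and 0 to 2 member probesets. By coat, Gzme was 1.83 with sex and class as covariates (adjusted p = 0.233), 2.09 in intermediate mice (0.488), 2.58 without eBayes trend (0.0501), 2.87 with the first papilloma (0.0768), 2.32 without mice of doubtful sex label (0.345), 1.66 without resistant mice (0.532) and 2.40 without the 2 papillomas of lowest Krt1 (0.106), with 9, 5, 12, 12, 12 and 14 probesets called where that count moved and 0 member probesets, or 1 without trend. Leaving out each mouse gave 2.33 to 2.83 and 0 to 2 member probesets.

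For latency, Gzmd by its _x_at probeset lost its call with log2 weeks (0.867 per log2 week, adjusted p = 0.161), with class as covariate (0.0811, adjusted p = 0.240), in intermediate mice (0.0104, adjusted p = 0.867) and without the 2 papillomas of lowest Krt1 (0.0255, adjusted p = 0.274); leaving out each mouse gave 0.0467 to 0.10. The _at probeset turned to -0.00266 in intermediate mice. Probesets called, 4 in the fit reported, were 0 with log2 weeks, class or intermediate mice, 1 with coat or centred arrays, 2 with the filter, 12 without mice of doubtful sex label, and 119 with the first papilloma and also without the 2 papillomas of lowest Krt1; member probesets were 0 to 2, also when each mouse was left out (0 to 8 probesets). The intraclass correlation of Gzmd turned to -0.114 and -0.117 with class means removed, and that of Gzmf to 0.325 without mice 32 and 34; leaving out each mouse gave -0.105 to 0.136 for Gzmf. The r of Gzmd with Gzme turned to -0.401 and -0.155 in susceptible mice and -0.263 and -0.173 in cohort A, and that of Gzmb to 0.0346 in cohort B. Member probesets with a permutation p under 0.05 against Gzme over means were 4 as reported. They were 2 without mice 34 and 35, in resistant mice, without the 3 mice of highest Gzmd and in cohort F. They were 1 in susceptible or white mice, with group means removed and in cohorts A and B, and 7 with first papillomas. Over differences the second Gzme probeset, both Gzmd probesets, Gzmg, Gzma and Prf1 (_at) passed as reported. Without mice 14 and 32 this count fell to 3. Of the members not named singly, no value passed by class (186 values over the alternatives, 12 with a changed sign), coat (288 and 45) or latency (322 and 8). Of their r with Gzme over means 7 of 96 passed and 27 changed sign, and of the r of the members with Gzmb over means 11 of 54 passed, 2 of these with a changed sign. The cause of these changes was not tested.

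No paired analysis was possible because the replicate numbers of the labels count papillomas within a mouse and pair nothing between classes or coats. Probesets below the array median, which include Gzmc, Gzmd, Gzmf, Gzmg and Gzma in nearly all arrays, carry little signal over background, so that a small difference in them is not detectable. Signal from Gzme and Gzmd cannot be told apart in the probeset annotated to both. Coat and class overlap, and 6 resistant mice set the precision.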
